A study of Homo sapiens with 10 samples.

Results

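The genes examined were MYC, MYCN, MAX, MXD1, MXD3, MXD4, MXI1, MNT and MLX, which belong to the MYC, MAX and MXD transcription factor network, together with MYB. They were chosen by name, and the 10 genes stand among 17379 genes that were measurable on the arrays. Of these, 11995 had a symbol matched through RefSeq. The others are transcript or locus records without a matched symbol, each counted as a gene in all shares and comparisons below. The cells were MEG-01, a human megakaryoblastic cell line from a chronic myeloid leukaemia in blast crisis. In 5 cultures the cells received 200 nM of a pre-miR-1225-3p precursor by nucleofection, and in the other 5 cultures they received 200 nM of a negative control (scrambled) precursor with a random sequence. RNA was taken after 24 hours from both groups and each culture was hybridized in a single Cy3 channel to an Agilent SurePrint G3 Human array. The delivery was transient, the line carries no engineered change in these genes, and the replicates are described as biological experiments run side by side. A source field of the scrambled samples names no treatment, whereas their titles name the transfection, and the titles were used.

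MYC is a basic helix-loop-helix leucine zipper factor that drives growth, ribosome production and cell cycle entry, and MYCN is its close relative in embryonic and neural tissue. Neither binds DNA alone. Each pairs with MAX and binds the E-box, whereas MXD1, MXD3, MXD4, MXI1 and MNT compete for MAX and recruit the SIN3 and HDAC corepressors to the same letters, so that the balance between partners of MAX decides the output. MLX is a MAX-like protein that pairs with MNT, with some MXD proteins and with the glucose sensors MLXIP and MLXIPL. MYB is a separate factor with its own DNA-binding domain, needed in blood cell progenitors, and its level falls when megakaryocytes and erythroid cells mature. Overexpressed microRNAs pair with transcripts through their seed, and the mature strand of the transfected microRNA is printed here because it is the only agent that differed between the groups. It has 22 bases, with the seed, bases 2 to 8, in capitals, and lies on the minus strand at chr16:2090195-2090216 (RefSeq, GRCh38.p14).
hsa-miR-1225-3p: uGAGCCCCugugccgcccccag

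The array carried 18 probes for the 10 genes, matched through their RefSeq accession, and 17 of them were kept, having a signal well above background on 3 or more arrays of at least one group. The probe left out reads the NM_001142935 transcript of MXD3, and no array showed it well above background. Values are log2 processed signals after cyclic loess normalization, and a gene is represented by its brightest kept probe. Differences are miR-1225-3p minus scrambled, and the adjusted p comes from limma with Benjamini-Hochberg adjustment over all 17379 genes. On each array between 41.95% and 61.18% of spots were well above background and no spot was saturated. The arrays lay on 2 slides that each held both groups. Slide 1 held miR-1225-3p replicates 1 and 2 and scrambled replicates 1, 3 and 5, and slide 2 held the other arrays. On the first principal component, which held 69.6% of the variance, miR-1225-3p replicate 5 scored 56.7 and lay among the scrambled arrays (48.7 to 79.9), whereas miR-1225-3p replicates 1 to 4 scored from -133 to -53.0. Of the megakaryocyte markers on the array 8 of 11 were well above background on every scrambled array, whereas the platelet granule gene PF4 was well above background on none. Among markers of other cell types, 4 of 4 monocyte and granulocyte, 3 of 4 erythroid, 1 of 4 lymphoid (CD3D) and 1 of 4 fibroblast and epithelial (EPCAM) markers were above background on every scrambled array. With miR-1225-3p, 4 of the 11 megakaryocyte markers were called lower and 0 higher, from -0.43 for NFE2 to -1.39 for ITGA2B, and 1 marker of each of the other lists was called higher. Their part in the results below was not tested.

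Of the 10 genes, 2 passed the threshold, the MAX-binding repressor MNT and the MAX-like partner MLX, both lower with miR-1225-3p. Over all genes, 35% passed it, 17% higher and 18.1% lower, so the share of the 10 genes that passed was below the share over all genes, and no gene of the 10 was called higher. MYC, the founding member, had the lowest fold change of all 10 and did not pass, and its signal on the 5 miR-1225-3p arrays ranged from 10.48 to 13.88. The median difference of the 10 genes was -0.12, beside -0.06 over all genes. None of the 10 genes had groups that did not overlap when read by its brightest probe, whereas 12.7% of all genes did. In bulk RNA, fewer cells that express a gene and less RNA per cell cannot be told apart.

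**Figure D1:**
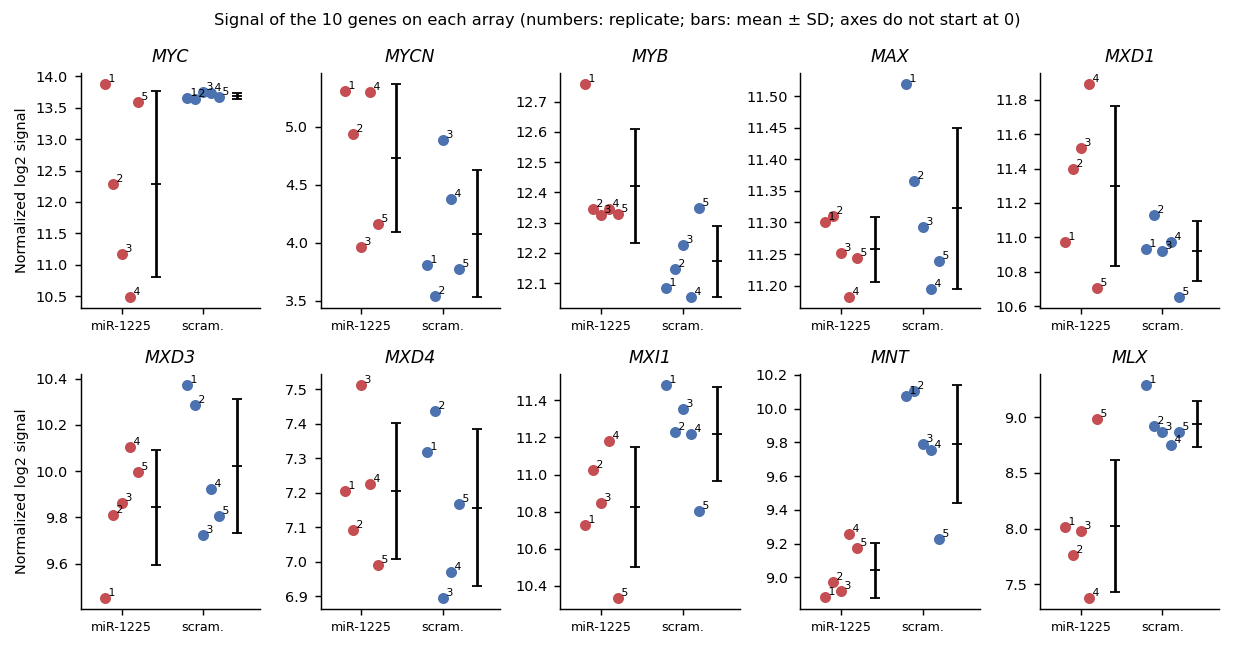
Normalized log2 signal (vertical axis, a different range for each gene) of the 10 genes on the 5 miR-1225-3p arrays (red) and the 5 scrambled arrays (blue), with replicate numbers and with bars for the mean ± SD. MYC ranges from 13.65 to 13.75 with the scrambled precursor and from 10.48 to 13.88 with miR-1225-3p, and MNT and MLX are the 2 genes that passed the threshold.

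MYC was read by a probe for NM_002467 that is printed 10 times on each array. Its signal on miR-1225-3p replicates 1 to 5 was 13.88, 12.29, 11.16, 10.48 and 13.59. On scrambled replicates 1 to 5 it was 13.65, 13.65, 13.75, 13.73 and 13.67. Replicates 2, 3 and 4 of the miR-1225-3p group were thus lower than every scrambled array, while replicate 1 was above all of them and replicate 5 was just below them. The spread between arrays was 1.48 (SD, n = 5) in the miR-1225-3p group and 0.048 (SD, n = 5) in the scrambled group. The spots of the probe on a single array differed by far less, with an SD between 0.034 and 0.093 log2 units. All 10 spots were well above background on every array.

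The mean difference of MYC was -1.41 ± 0.59 (SE), a 2.66-fold lower signal, with a 95% interval from -2.72 to -0.10 and an adjusted p of 0.0828 by limma. The exact permutation test over all regroupings of the arrays gave p = 0.119 (two-sided, n = 5 in each group). MYC passed the threshold in limma without miR-1225-3p replicate 5 (difference -1.74, adjusted p = 0.0286) and without miR-1225-3p replicate 1 (-1.81, adjusted p = 0.0424). Without replicates 2, 3 and 4, on which it was low, it was -1.41, -1.13 and -0.96 (adjusted p = 0.138, 0.176 and 0.160) and did not pass. The mean of MYC was lower within both slides, at -0.60 on slide 1 and -1.95 on slide 2, with adjusted p of 0.366 and 0.494 by limma. On slide 1 the fall rested on miR-1225-3p replicate 2 alone, as replicate 1 was above every scrambled array. Scaling by the 75th percentile gave arrays 2, 3 and 4 differences from the scrambled mean of -0.69, -1.81 and -2.26, and arrays 1 and 5 differences of 0.63 and -0.07, so the same 3 arrays were low, and the mean difference was -0.84.

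**Figure D2:**
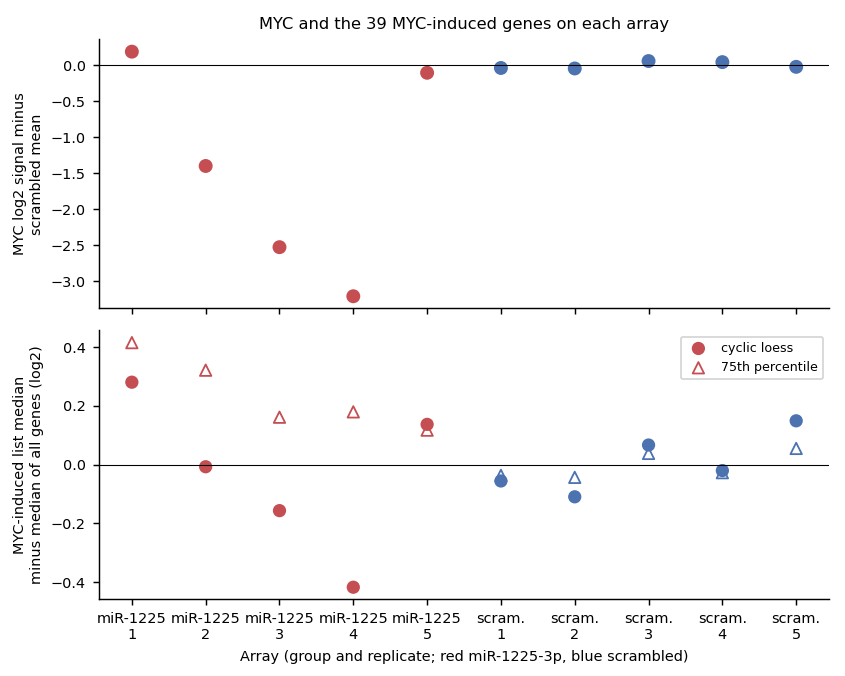
Upper panel, MYC log2 signal of each array minus the scrambled mean; lower panel, the median of 39 MYC-induced genes on each array, in the same terms, minus the median of all genes, after cyclic loess (circles) and after scaling by the 75th percentile (triangles). MYC is lowest on miR-1225-3p replicate 4 at -3.21, where the list median stands at -0.42 by cyclic loess and at 0.18 by the 75th percentile.

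Genes known to be induced by MYC were compared with MYC array by array. After cyclic loess, the median of 39 such genes, relative to their scrambled means and to the median of all genes, was 0.28 on miR-1225-3p replicate 1 and 0.14 on replicate 5, the arrays on which MYC was not low. On replicates 2, 3 and 4 it was -0.01, -0.16 and -0.42, in the same order as MYC on those arrays, and on the scrambled arrays it lay between -0.11 and 0.15. Quantile normalization gave the same order, at 0.32, 0.01, -0.10, -0.41 and 0.15 on miR-1225-3p replicates 1 to 5. The order was not kept when arrays were scaled by the 75th percentile, where the list stood at 0.42, 0.32, 0.16, 0.18 and 0.12 on miR-1225-3p replicates 1 to 5, above every scrambled array (-0.04 to 0.06). The link between MYC and its list within the miR-1225-3p group is a description of 5 arrays and depends on the scaling.

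The genes whose signal followed MYC most closely over the 10 arrays were 2 overlapping long intergenic RNAs and UBE2T, a ubiquitin-conjugating enzyme of the Fanconi anaemia pathway. UBE2T had a signal of 11.21, 10.33, 9.47, 8.97 and 11.20 on miR-1225-3p replicates 1 to 5 and from 11.10 to 11.29 on the scrambled arrays (Pearson r = 0.996 with MYC over 10 arrays). The RNAs lie on the forward strand at chr3:184997356-185033531 and chr3:184997356-185017181 (hg19, as the probe names give them), with r of 0.998 and 0.995. Of 11990 genes well above background on all arrays, 583 had r above 0.9 with MYC, so the pattern of low arrays 2, 3 and 4 was shared by many genes. The arrays and their normalization are common to all of these correlations, and no test is attached to them.

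MYCN was near background, with 3 of 5 arrays of each group well above it. Its signal on miR-1225-3p replicates 1 to 5 was 5.30, 4.94, 3.96, 5.30 and 4.16, and on the scrambled arrays 3.81, 3.54, 4.88, 4.38 and 3.77. The groups overlapped, and the difference of 0.66 ± 0.34 (SE) had an adjusted p of 0.151 by limma.

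MAX, the shared partner of the network, was read by 3 probes for different transcript records, and they did not move together. The brightest, for NM_145113, ranged from 11.18 to 11.31 with miR-1225-3p and from 11.19 to 11.52 with the scrambled precursor, a difference of -0.06 ± 0.11 (SE, adjusted p = 0.655 by limma) with a 95% interval from -0.31 to 0.18. The probe for NM_197957 was lower on every miR-1225-3p array, at 8.28, 8.42, 8.16, 8.54 and 8.44, than on any scrambled array, at 8.76, 8.61, 8.74, 8.68 and 8.82. Its difference of -0.35 ± 0.12 (SE) passed the threshold (adjusted p = 0.0450 by limma over all kept probes), but it was -0.10 (adjusted p = 0.607) when arrays were scaled by the 75th percentile. By quantile normalization it was -0.19 (adjusted p = 0.292 by limma). When single arrays were left out, it passed only without miR-1225-3p replicate 4 (adjusted p = 0.0474) or replicate 5 (adjusted p = 0.0215). The probe for NM_145114 went the other way, at 7.34, 7.18, 7.12, 7.16 and 6.23 on the miR-1225-3p arrays and 5.56, 5.71, 6.30, 6.19 and 6.37 on the scrambled arrays. It rose by 0.98 ± 0.25 (SE, adjusted p = 0.0199 by limma), and only replicate 5 lay within the scrambled range. This rise was 0.99 by the 75th percentile (adjusted p = 0.0181) and 1.09 by quantile normalization (adjusted p = 0.0190). It was 0.50 (adjusted p = 0.0295) after normexp background correction and 0.57 (adjusted p = 0.470) without normalization. The transcripts share exons and a probe can read more than one of them, so the amounts of the single MAX transcripts are not resolved by these values.

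MXD1, MXD3, MXD4 and MXI1 encode repressors that take MAX from MYC, often during differentiation, and none of the 4 passed the threshold by its brightest probe. MXD1, at 10.98, 11.40, 11.52, 11.89 and 10.70 on the miR-1225-3p arrays, lay at 10.93, 11.13, 10.92, 10.97 and 10.65 on the scrambled arrays. Replicates 2, 3 and 4, the arrays with low MYC, held the highest MXD1 signals. The difference was 0.38 ± 0.22 (SE, adjusted p = 0.188 by limma), and without miR-1225-3p replicate 5 it was 0.53 (adjusted p = 0.0358). A second probe for the same record, NM_002357, moved in the opposite direction, from 9.43 to 9.64 on the miR-1225-3p arrays against 9.76 to 10.61 on the scrambled arrays. That fall of -0.65 ± 0.17 (SE, adjusted p = 0.0215 by limma) left the groups apart, although by the 75th percentile it was -0.27 (adjusted p = 0.313). The direction of MXD1 thus depends on the probe.

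MXI1 was lower by all 3 of its probes. Both probes for NM_130439 gave similar differences, -0.39 ± 0.19 (SE, adjusted p = 0.12 by limma) for the brighter and -0.41 ± 0.18 (SE, adjusted p = 0.0916 over all kept probes) for the dimmer, and neither passed. MXI1 was called lower with the mean of its kept probes (-0.74, adjusted p = 0.0154) and after normexp background correction (-0.45, adjusted p = 0.0464). The probe for NM_005962 stood at 5.80, 5.66, 4.39, 4.68 and 6.27 on the miR-1225-3p arrays and at 6.78, 6.78, 7.04, 6.64 and 6.67 on the scrambled arrays. Every miR-1225-3p array was lower than every scrambled one, and the fall of -1.42 ± 0.33 (SE, adjusted p = 0.0170 by limma) was -1.45 by the 75th percentile and -1.31 by quantile normalization. After normexp background correction it was -0.59 (adjusted p = 0.0139). Of the miR-1225-3p arrays 3 showed it well above background, as did all 5 scrambled arrays, so its lowest values are near background.

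MXD3 ranged from 9.45 to 10.10 with miR-1225-3p and from 9.72 to 10.37 with the scrambled precursor, a difference of -0.18 ± 0.18 (SE, adjusted p = 0.441 by limma). MXD4 differed by 0.05 ± 0.15 (SE, adjusted p = 0.814 by limma) with a 95% interval from -0.29 to 0.39. Its second probe, dimmer and printed once per array, gave -0.90 ± 0.35 (SE, adjusted p = 0.0657 over all kept probes), so MXD4 also had probes that differed in sign.

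**Figure D3:**
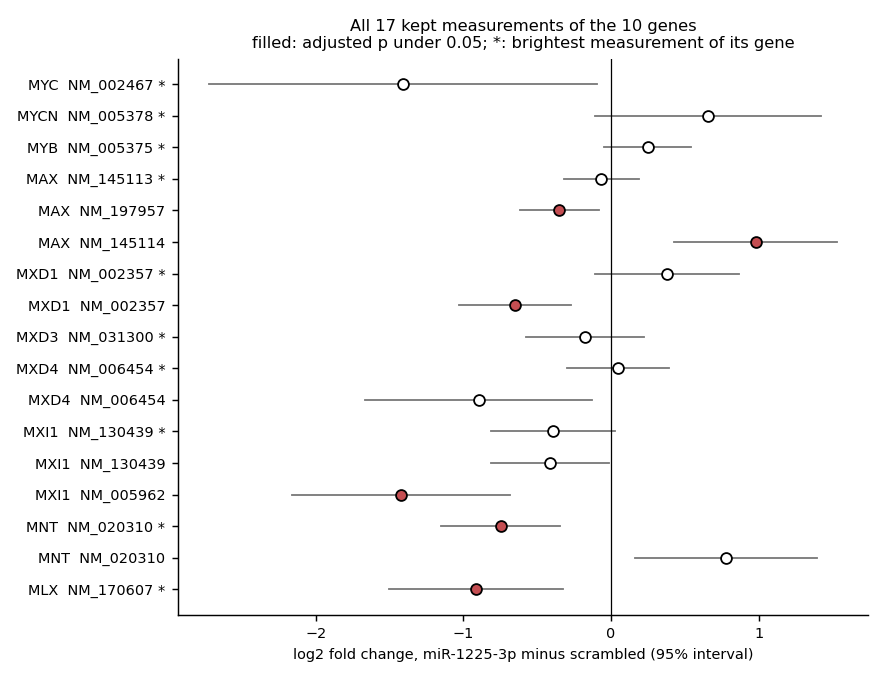
Difference in log2 signal, miR-1225-3p minus scrambled (horizontal axis), with its 95% interval, for each of the 17 kept probes of the 10 genes, named by gene and RefSeq accession. Filled points passed an adjusted p of 0.05 by limma (6 probes) and a star marks the brightest probe of a gene; the probes of MAX, MXD1, MXD4 and MNT lie on both sides of 0.

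Over the 17 kept probes, 6 passed the threshold, 5 lower and 1 higher, while 35% of all 20648 kept probes passed. The groups did not overlap for 3 of the 17, and for 12.6% of all kept probes. Of the 5 genes with more than 1 kept probe, 4 had probes of opposite sign.

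MNT, a ubiquitous repressor that pairs with MAX and with MLX, fell. Its signal on miR-1225-3p replicates 1 to 5 was 8.88, 8.97, 8.92, 9.26 and 9.17, and on the scrambled arrays 10.07, 10.10, 9.79, 9.75 and 9.23. Only scrambled replicate 5 lay within the range of the miR-1225-3p arrays. The difference was -0.75 ± 0.18 (SE), a 1.68-fold lower signal, with an adjusted p of 0.0178 by limma and an exact permutation p of 0.0159 (two-sided, n = 5 in each group). It was close to this within each slide, at -0.77 on slide 1 and -0.81 on slide 2, with adjusted p of 0.102 and 0.494 by limma. It passed without each array in turn, but not when arrays were scaled by the 75th percentile, where it was -0.41 (adjusted p = 0.131). Nor did it pass without normalization (-0.83, adjusted p = 0.178 by limma) or with a replicate block (-0.75, adjusted p = 0.0582 by limma). The second MNT probe, for the same NM_020310 record, was at 6.30, 6.47, 6.78, 6.83 and 5.56 against 5.77, 5.68, 5.18, 5.23 and 6.19 on the scrambled arrays, a difference of 0.78 ± 0.28 (SE, adjusted p = 0.0519 by limma), which passed by quantile normalization (0.86, adjusted p = 0.0436). The mean of both probes gave 0.01, so the fall of MNT rests on its brighter probe.

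MLX fell too, by its single probe for NM_170607. The signals on the miR-1225-3p arrays were 8.02, 7.77, 7.98, 7.37 and 8.98, and those on the scrambled arrays 9.29, 8.92, 8.87, 8.75 and 8.86. Replicates 1 to 4 with miR-1225-3p were lower than every scrambled array, whereas replicate 5, the array that lay among the scrambled arrays on the first principal component, was not. The difference was -0.92 ± 0.27 (SE), a 1.89-fold lower signal, with an adjusted p of 0.0281 by limma and an exact permutation p of 0.0397 (two-sided, n = 5 in each group). It was -1.15 (adjusted p = 0.000521) without replicate 5. The adjusted p lay between 0.0510 and 0.0706 without any one of the other miR-1225-3p arrays or of scrambled replicates 1 to 4. By the 75th percentile it was -0.68 (adjusted p = 0.0367) and by quantile normalization -0.72.

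The E-box letters CACGTG were looked for in the RefSeq promoter windows of the genes, each running from 250 bases before to 50 bases after the start. The letters read the same on both strands. Of 12 windows for 9 of the genes they stood in those of MNT and MLX, which passed the threshold, and of MXD4, which did not. They stood in none of the windows of MYCN, MYB, MAX, MXD1, MXD3 and MXI1. Of all 35116 windows, 7.26% held them. A promoter window of MYC is not reported here. The stretches around the letters are printed because they are the element that MYC, MAX and the MXD proteins bind, with the E-box in capitals (GRCh38.p14). The MNT stretch, chr17:2401221-2401280 on the minus strand, has its E-box 193 bases before the start. The MLX stretch, chr17:42567023-42567082 on the plus strand, has it 50 bases before. The MXD4 stretch, chr4:2262315-2262359 on the minus strand, has it 238 bases before.
MNT: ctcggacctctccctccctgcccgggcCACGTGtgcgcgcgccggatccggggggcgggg
MLX: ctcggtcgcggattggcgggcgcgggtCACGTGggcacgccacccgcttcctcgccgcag
MXD4: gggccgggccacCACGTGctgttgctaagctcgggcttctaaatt

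Among all 9636 tested genes with a promoter window, 1213 held the E-box letters in one of their windows. Of these 217 (17.9%) were called higher and 248 (20.4%) lower, with a median difference of -0.04. Of 8423 genes without the letters, 18.9% were higher and 18.6% lower, with a median of -0.03. No binding was measured here. The MYB motif AACNG, on either strand, was in 77.2% of all windows, too common to set any gene apart.

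MYB, needed for progenitor growth, showed no low miR-1225-3p array. Its signal on miR-1225-3p replicates 1 to 5 was 12.76, 12.35, 12.33, 12.35 and 12.33, and on the scrambled arrays 12.08, 12.15, 12.23, 12.06 and 12.35. Replicate 1 stood above all others, and scrambled replicate 5 reached the level of the remaining miR-1225-3p arrays. The difference was 0.25 ± 0.13 (SE), with an adjusted p of 0.151 by limma and an exact permutation p of 0.0397 (two-sided, n = 5 in each group, unadjusted). By the 75th percentile it was 0.78 (adjusted p = 0.0143), and by quantile normalization 0.31 with no call. The genes most like MYB over the 10 arrays were CLASP2, which binds microtubule ends (r = 0.977), BANP, a nuclear matrix protein (r = 0.938), and SDHB, a subunit of succinate dehydrogenase (r = 0.934). Of 11990 genes, 12 had r above 0.9 with MYB.

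**Figure D4:**
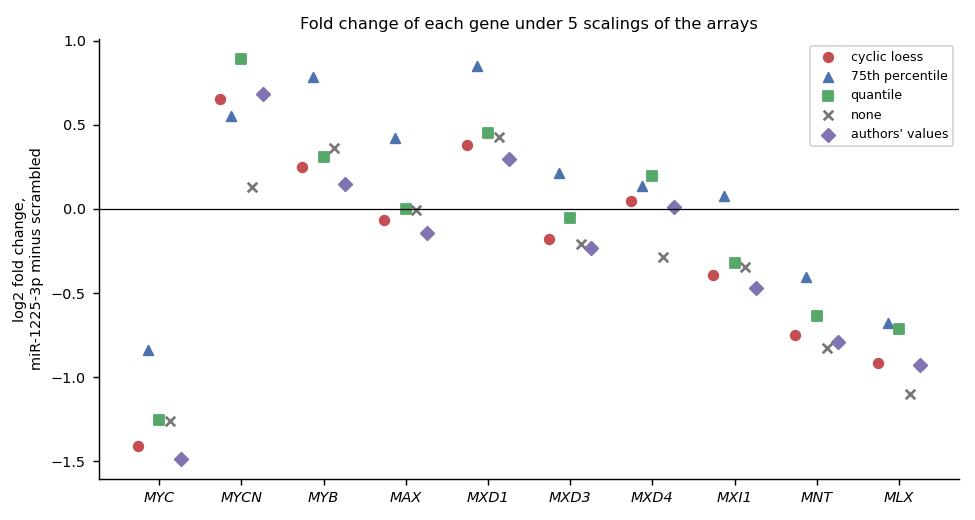
Difference in log2 signal, miR-1225-3p minus scrambled (vertical axis), of each of the 10 genes (horizontal axis) under 4 scalings of the arrays and in the authors' deposited values. MYC, MNT and MLX lie below 0 and MYCN, MYB and MXD1 above 0 under all 5, while MAX, MXD3, MXD4 and MXI1 change sign.

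The scaling moved the median over all genes, and single genes by different amounts. The median over all genes was -0.06 after cyclic loess, 0.16 after the 75th percentile, 0.08 after quantile normalization and -0.26 with none. The 75th percentile made the difference of MAX 0.42, of MXD3 0.21 and of MXI1 0.08, against -0.06, -0.18 and -0.39 after cyclic loess, and none of these passed the threshold. Of the calls among the 10 genes, MLX passed under cyclic loess, the 75th percentile and quantile normalization, MNT under the first and the last, and MYB under the 75th percentile alone.

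The lists around the network were read from the same fit. Over all genes 17% were higher and 18.1% lower after cyclic loess. By the 75th percentile 4562 of all 17379 genes were higher and 2585 lower (median 0.16). Of 9 corepressors, coactivators and other network genes tested, 4 were lower and 0 higher after cyclic loess (median -0.17), and 2 lower and 2 higher by the 75th percentile (median 0.38). SIN3A, the scaffold through which MXD proteins recruit HDACs, was at 7.17 to 8.39 on the miR-1225-3p arrays and at 8.48 to 9.40 on the scrambled arrays. Its fall of -1.42 ± 0.27 (SE, adjusted p = 0.0136 by limma) was -1.20 by the 75th percentile. MLXIP, a glucose-responsive partner of MLX, fell by 0.82 ± 0.26 (SE, adjusted p = 0.0346 by limma), and by the 75th percentile it was -0.58 (adjusted p = 0.0871). MGA, which also pairs with MAX, differed by 0.67 ± 0.30 (SE, adjusted p = 0.101 by limma).

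Among 13 genes for the turnover of MYC protein and its cofactors, 2 were higher and 4 lower (median -0.20), and by the 75th percentile 4 were higher and 4 lower (median 0.17). AURKA, a mitotic kinase that stabilizes MYC family proteins, ranged from 8.75 to 10.27 with miR-1225-3p and from 10.38 to 10.65 with the scrambled precursor, a fall of -1.24 ± 0.26 (SE, adjusted p = 0.0141 by limma). MYCBP, a MYC-binding protein, rose by 0.56 ± 0.15 (SE, adjusted p = 0.0209 by limma). FBXW7, the ubiquitin ligase subunit that marks MYC for degradation, differed by 0.41 ± 0.20 (SE, adjusted p = 0.135) and did not pass. AURKA and MYCBP kept their direction and their call by the 75th percentile and by quantile normalization.

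Of 39 MYC-induced genes, 9 were higher, 5 lower and 25 not called, with a median of -0.06. The same gene, RRP9, stood at this median and at that of all genes. By the 75th percentile 16 were higher and 4 lower (median 0.34), beside 4562 higher and 2585 lower of all 17379 genes (median 0.16). The named rises were TERT, the catalytic subunit of telomerase, at 7.61 to 8.70 against 6.21 to 7.43 (1.69 ± 0.28 SE, adjusted p = 0.0136 by limma), MRTO4, a ribosome assembly factor (1.57 ± 0.25 SE, adjusted p = 0.0136), and E2F2, a cell cycle transcription factor (1.53 ± 0.21 SE, adjusted p = 0.0127). ODC1, the rate-limiting enzyme of polyamine synthesis, rose by 0.66 ± 0.11 (SE, adjusted p = 0.0136). TERT, MRTO4 and E2F2 passed by quantile normalization and the 75th percentile too. MYC protein was not measured, and a part of MYC in these rises was not tested. The largest fall of the list, chosen after its values were seen, was in CCND2, a cyclin that opens the G1 phase. Its signal on miR-1225-3p replicates 1 to 5 was 8.59, 4.52, 4.00, 2.96 and 10.78, against 10.46 to 10.92 on the scrambled arrays. The fall of CCND2 (-4.55 ± 1.32 SE, adjusted p = 0.0282 by limma) was thus carried by replicates 1 to 4. CCND2 was lowest on replicate 4, where MYC was lowest too. It was also below every scrambled array on replicate 1 (8.59), where MYC was higher than on any other array. On 2 of replicates 1 to 4 the CCND2 signal was not well above background. A part of MYC in the values of CCND2 was not tested.

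Of 8 MYC-repressed genes, 1 rose and 1 fell (median -0.29, and 0.02 by the 75th percentile). NDRG1, a differentiation and stress gene, fell by 0.90 ± 0.22 (SE, adjusted p = 0.0178 by limma), but by the 75th percentile the difference was -0.21 (adjusted p = 0.261). GADD45B, a stress sensor, rose by 0.49 ± 0.13 (SE, adjusted p = 0.0235 by limma). The cell cycle inhibitor CDKN1A, at -0.32 ± 0.15 (SE, adjusted p = 0.107), did not pass.

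In the MYB family and its partners, 1 of 7 genes was higher and 3 were lower (median -0.57). By the 75th percentile 1 was higher and 2 were lower (median -0.15). KMT2A, the methyltransferase that works with MYB in blood cells, fell by 0.57 ± 0.14 (SE, adjusted p = 0.0174 by limma), and by the 75th percentile it was -0.15 (adjusted p = 0.495). The coactivator CREBBP was called higher (0.61 ± 0.21 SE, adjusted p = 0.0432) and its paralogue EP300, which only 1 miR-1225-3p array showed well above background, lower (-1.33 ± 0.42 SE, adjusted p = 0.0363). Of 6 MYB target genes tested, MYC among them, 2 were lower and 0 higher (median -0.30). GFI1, a zinc finger repressor of blood progenitors, lay between 8.32 and 8.83 against 9.08 and 9.41 (-0.66 ± 0.14 SE, adjusted p = 0.0142 by limma), and KIT, the stem cell factor receptor, fell by 0.53 ± 0.18 (SE, adjusted p = 0.0427). By the 75th percentile no MYB target passed (median 0.08). Both MLX partner targets tested, TXNIP (0.52 ± 0.22 SE, adjusted p = 0.0801 by limma) and ARRDC4 (-0.18 ± 0.16 SE, adjusted p = 0.384), which report the activity of MLX with its glucose-sensing partners, did not pass. TXNIP was called higher by the 75th percentile (1.20, adjusted p = 0.0232) and without miR-1225-3p replicate 5 (0.69, adjusted p = 0.00473).

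**Figure D5:**
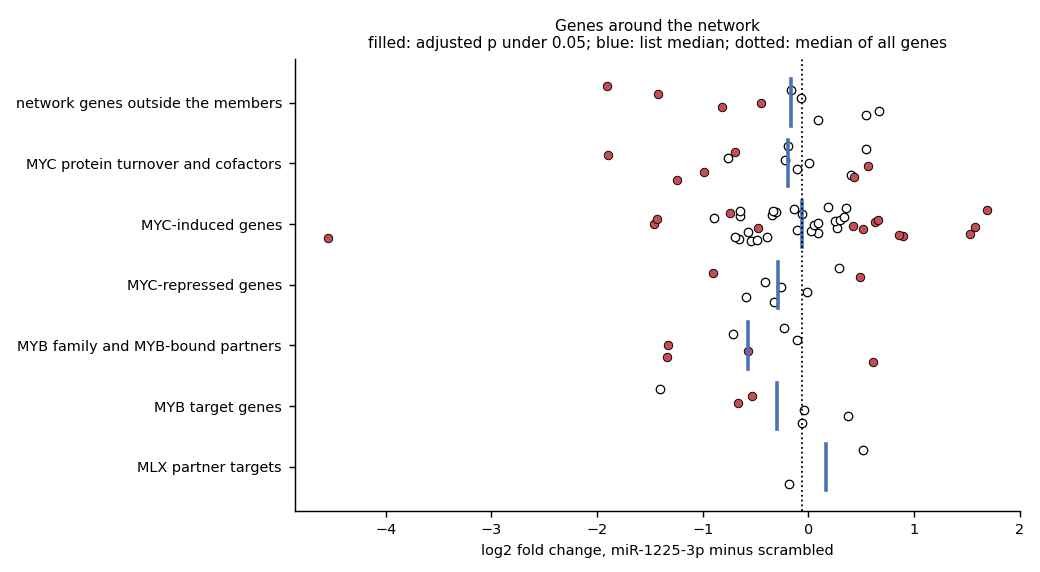
Difference in log2 signal, miR-1225-3p minus scrambled (horizontal axis), of every tested gene of the 7 lists (rows). Filled points passed an adjusted p of 0.05 by limma, blue bars are list medians (from -0.57 for the MYB family to 0.17 for the MLX partner targets) and the dotted line is the median of all genes, -0.06; the point at -4.55 is CCND2.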

How the data were processed

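Total RNA of 10 cultures, 5 per group, was measured on single-colour arrays. Per the submitters' processing notes spots were quantified with Agilent Feature Extraction 10.7.3.1. The authors deposited this output, whose processed signal gives each spot's intensity after background subtraction, beside a matrix of log2 values that the authors normalized by cyclic loess. The median signal and background, also deposited as intensity, served an alternative. From the processed signals, 4259 control spots were left out, and log2 values went through cyclic loess with 3 iterations of the fast method (limma 3.58.1, R 4.3.3). Outlier-flagged spots were set missing after the normalization, and the remaining spots of each probe were averaged. A probe was well above background on an array if 0.5 or more of its spots were, and was kept if that held on 3 or more arrays of a group. RefSeq accessions named 24910 of 42405 probes (GRCh38.p14). The groups were compared with limma and, for single genes, with an exact permutation test; the smallest two-sided p that it can give is 0.00794. The p-values measure the spread between cultures that are described as run side by side, and the number of arrays limits the precision. The table of deposited log2 values correlated at 0.848 to 0.988 per array with the values used here over 29271 probes, after centring each probe, and its column medians lay between 4.77 and 5.15; the centring on control values that the methods describe was not repeated.

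The members, lists and tests were chosen with earlier results of these data known. Named list genes are the up to 3 largest rises and falls of each list among genes that passed 0.05, had groups that do not overlap and stood well above background on every array; ODC1, MGA, FBXW7, CDKN1A, CREBBP, EP300, KIT, TXNIP, ARRDC4 and CCND2 fall outside this rule and were chosen after their values were seen. Not every gene named by the rule is reported here. For MYC and MYB the 3 genes with the highest Pearson r are named. Alternatives covered the scaling, the source of the values, normexp background correction (offset 50), the filter, flagged spots, the probe of a gene, the test (with the methods' t-test), the replicate number and slide as blocks, each slide alone and each array left out. List counts by scaling and the E-box counts were added after seeing the data. Scripts were tested on simulated data.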

Additional observations from a re-analysis of the deposited data

Results flagged for a closer look

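Among 34 groups of 5 arrays over the 17 kept probes, 2 held an array far from the other 4, by Dixon's criterion, and 1.7 would be flagged by chance. MYB stood at 12.76 on miR-1225-3p replicate 1, whereas the other 4 arrays of that group lay between 12.33 and 12.35. The MAX probe for NM_145114 stood at 6.23 on miR-1225-3p replicate 5, whereas the others lay between 7.12 and 7.34.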

How the results depend on the processing

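The counts of calls depended on the processing more than the direction of MYC, MYCN, MYB and MLX, which kept their sign under every alternative run for them. Without normalization 0 of the 10 genes, 0 of their probes, 1266 of all genes and 2 list genes were called, and without a filter on dim probes 1, 4, 3411 and 19; array weights called 5 (MYC, MYB, MXD1, MNT and MLX), 12, 11757 and 59. Unnormalized, 2 of the 10 genes had an unadjusted p under 0.05. A fit with a replicate block called 0 genes by limma, against 7474 at an unadjusted p under 0.05, 3 of the 10 among them. Deviations of same-numbered arrays from their group means correlated at -0.40 to 0.07. The miR-1225-3p arrays differed widely among themselves, so these values cannot show whether the numbers pair the cultures. Within slide 1 limma called 1 member (MLX) and 4500 of all 17379 genes, and 4 members had groups apart. Within slide 2 it called 0 members, 0 probes, 0 list genes and 0 of all genes, and 4 members had groups apart. On slide 2, 1220 of all genes had an unadjusted p under 0.05, 1 of the 10 among them. A slide holds few arrays, so groups come apart easily by chance. One member had groups apart by the 75th percentile, in the authors' values, with normexp and with the mean of kept probes. Leaving out each array in turn gave 1 to 4 members, 1 to 11 probes, 13 to 56 list genes, 2129 to 9624 genes called and 0 to 3 members apart. The share of all genes with groups apart was not computed for these alternatives, so their counts of members apart are not a result about the members. The signs that reversed were those of MAX (0.42 by the 75th percentile, 0.00090 by quantile normalization, 0.19 with the mean of probes, 0.029 with array weights), MXD3 (0.21) and MXI1 (0.076) by the 75th percentile, MXD4 (-0.29 without normalization, -0.42 with the mean of probes, and -0.029 to 0.12 without each array in turn, below 0 at -0.029 without miR-1225-3p replicate 3 and at -0.017 without scrambled replicate 3), and, with the mean of probes, MXD1 (-0.14) and MNT (0.015). The cause was not tested. By the 75th percentile 36.2% of all calls were lower, by quantile normalization 40.8%, without normalization 86.3% and in the main analysis 51.6%. MYCN is near background, which limits what its values can show.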
